A study of Mus musculus with 16 samples.

Results

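The genes described here drive mitosis and cytokinesis, the separation of the copied chromosomes and the division of the cell body. They were taken from a list of 43 genes in 8 roles, and 42 of them were measured among 18194 genes on the arrays. Ccnb1 had no probe set assigned to it alone in the annotation used and was not analysed here. A gene was represented by the probe set that named no other gene and had the highest mean over all arrays. The list is defined by function, but its members were chosen with earlier results of these data known.

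The study measured total RNA of mouse primary neural crest stem cells (NCSCs) on 16 Affymetrix arrays. The titles name 4 groups of 4 arrays: NCSCs, which are labelled as not primed, Glia, Autonomic, whose cell type label reads primed to neurons, and Mesenchymal. All groups came from neural crest material in NCSC medium, and the primed groups had been exposed to instructive growth factors, so that the study could ask how priming towards a lineage changes expression. The labels used here do not state genotype, strain or age, nor the factors, their doses and how long they acted, nor if each replicate was its own culture. The p-values thus reflect variation among these samples alone, some of which may be technical. The groups are called unprimed, glia-primed, neuron-primed and mesenchyme-primed below.

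Of 16 listed crest markers 14 were measured, and 10 of these in unprimed and 11 in each primed group had a group mean more than 2 log2 units above the array medians. None of the endothelial or blood markers did so in any group. In unprimed, glia-primed, neuron-primed and mesenchyme-primed cells, 5, 1, 3 and 4 of 7 neural tube progenitor markers did so. For smooth muscle and mesenchyme, 5, 6, 6 and 5 of 9 markers did so. For glia the counts were 3, 2, 1 and 2 of 8, and for neurons 3, 2, 3 and 2 of 11. Skeletal muscle had 0, 1, 1 and 0 of 5, and surface ectoderm and epithelium 1, 1, 1 and 0 of 6. The crest marker Ngfr was lower than in unprimed cells in glia-primed (log2 change -1.87, limma adjusted p = 0.0479) and neuron-primed cells (-2.75, limma adjusted p = 0.00554). No other crest marker had an adjusted p under 0.05 against unprimed cells. The glial marker Cnp was lower in neuron-primed cells (-2.905, limma adjusted p = 0.0465). Array medians lay between 8.26 and 8.85 on the linear intensity scale. Correlations within groups were 0.899 to 0.957, and no 2 arrays were identical. Neuron-primed replicate 1 stood among the unprimed arrays on the first principal component, at -39.7 against 28.9 to 57.3 for its group.

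Entry into mitosis depends on Cdk1 bound to B-type cyclins, and Plk1 and the Aurora kinases act with it. Kinetochores join chromosomes to the spindle, and a checkpoint holds anaphase back until all are attached. The anaphase-promoting complex then marks securin and cyclins for destruction, and a contractile ring organised by anillin and the central spindle divides the cytoplasm. Many of these genes are transcribed mainly in late cell cycle stages, so in bulk RNA fewer dividing cells and less RNA per dividing cell cannot be told apart. Migratory crest cells are a dividing population, and in many lineages cells leave the cycle as they differentiate.

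In glia-primed cells 1 of 42 genes fell and 0 rose at a limma adjusted p under 0.05. The gene that fell was Anln, which encodes anillin, the scaffold of the contractile ring. Over all genes 0.324% fell and 0.187% rose in this comparison. A total of 37 of the 42 genes lay below 0, with a median log2 change of -0.32 against -0.01 over all genes, of which 50.8% lay below 0. Among genes brighter than the median gene the median was -0.11 and 58.7% lay below 0. The median of the mitotic genes stayed below 0 under all 3 other scalings of the arrays, at -0.36 after median centring, -0.18 after cyclic loess and -0.06 after centring on housekeeping genes, which itself moved the median of all genes to 0.26. The count below 0 fell from 37 to 29 with cyclic loess and to 23 with housekeeping centring. Without glia-primed replicate 1 the median was -0.55.

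In neuron-primed cells 0 of 42 genes passed, while 0.302% of all genes fell and 0.132% rose. There 28 genes (66.7%) lay below 0, against 49.5% of all genes and 56.6% of the brighter genes. The median was -0.21, against -0.09 in the brighter genes, but centring on housekeeping genes turned it to 0.09 with 16 genes below 0. That centring also moved the median of all genes to 0.30, so the list median minus that of all genes stayed at -0.21. In mesenchyme-primed cells 0 of 42 genes passed, while 0.0055% of all genes fell and 0.0165% rose. The median was -0.23, with 29 genes (69.0%) below 0, against -0.11 and 59.1% in the brighter genes and 50.8% below 0 over all genes. It was -0.07 under cyclic loess and -0.20 with housekeeping centring. The latter moved the median of all genes to 0.02 here, against 0.26 in glia-primed cells. Relative to all genes, the list median stayed at -0.22 here and at -0.32 in glia-primed cells. For the mean of the 3 primed groups against unprimed cells no gene of the list passed (0.324% of all genes fell, 0.121% rose), and the median was -0.23 with 33 genes below 0. At an unadjusted p under 0.05, 5 were lower and 1 was higher there, against 6.54% and 3.62% of all genes. The primed groups were all set against the same unprimed arrays, so these shifts share them.

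**Figure D1:**
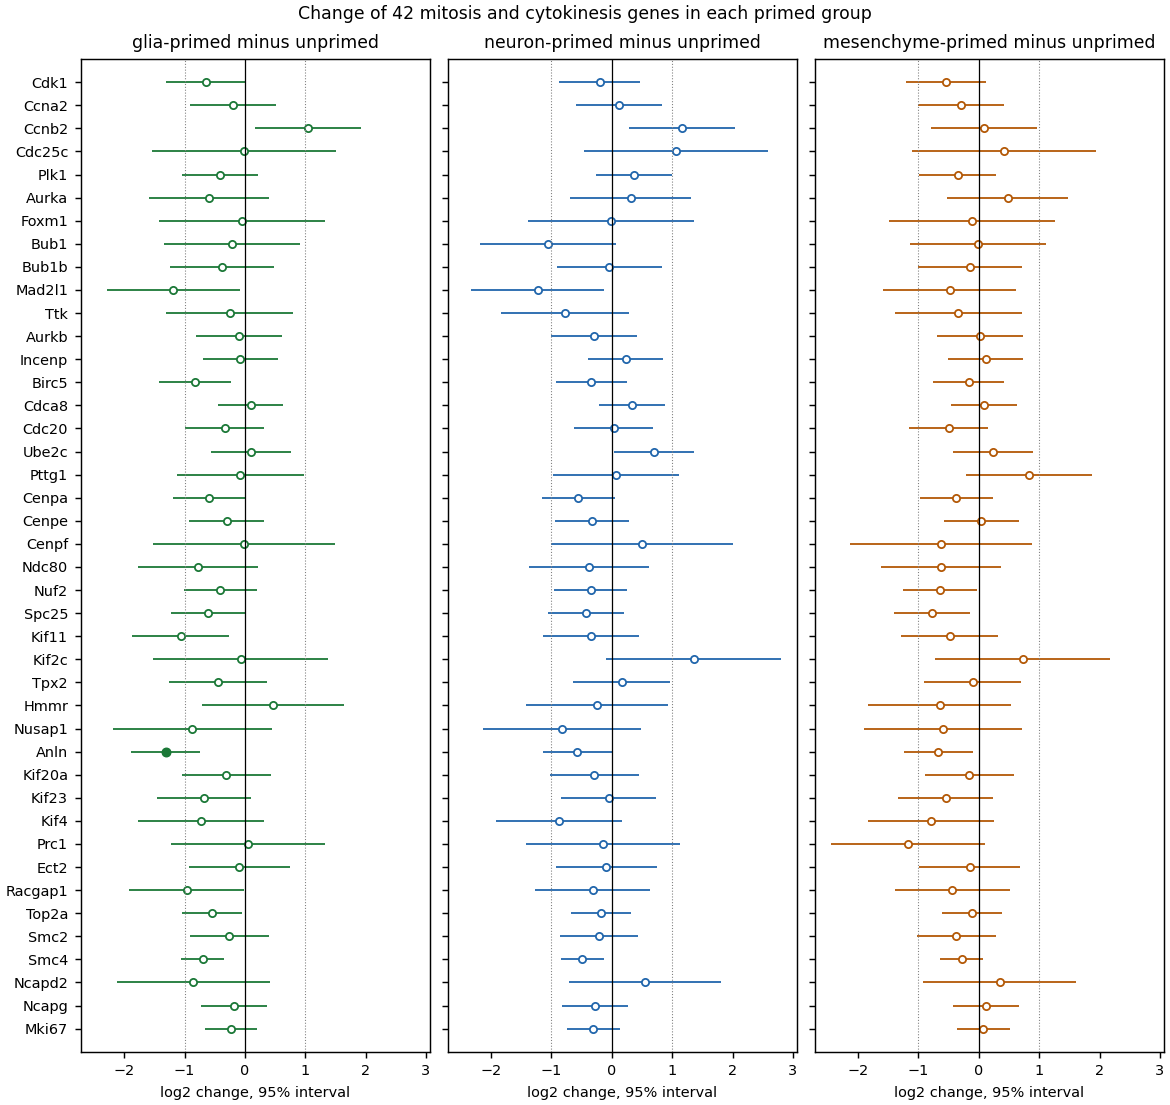
Log2 change of 42 mitosis and cytokinesis genes in each primed group against unprimed cells, with 95% intervals from limma (4 arrays per group) and dotted lines at a 2-fold change. The filled point, Anln in glia-primed cells, is the only change with an adjusted p under 0.05; 37, 28 and 29 genes lie below 0 in the glia-primed, neuron-primed and mesenchyme-primed panels, and these counts become 23, 16 and 28 with housekeeping centring and 29, 23 and 24 with cyclic loess.

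At an unadjusted p under 0.05, 7 of the 42 genes were lower in glia-primed cells and 1 was higher, against 5.91% and 4.0% of all genes. The 7 were Anln, Smc4, Birc5, Kif11, Top2a, Mad2l1 and Racgap1, and the higher one was Ccnb2. In neuron-primed cells 3 were lower and 2 higher (all genes 5.51% and 4.29%), and in mesenchyme-primed cells 3 were lower and 0 higher (all genes 4.56% and 3.14%). All 4 primed arrays lay below all 4 unprimed arrays for 6 genes in glia-primed cells (Anln, Birc5, Bub1, Cdk1, Ndc80 and Smc4; 4.16% of all genes), for Mad2l1 in neuron-primed cells (3.24%), and for Anln and Cdk1 in mesenchyme-primed cells (3.29%). All 4 lay above for 0 genes in glia-primed cells (3.02%), for Ccnb2 and Ube2c in neuron-primed cells (2.29%), and for Pttg1 in mesenchyme-primed cells (2.41%).

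The precision differed widely between genes. Residual SDs ran from 0.2 log2 units for Smc4, a core ATPase of condensin, to 1.09 for Cdc25c, the phosphatase that activates Cdk1, with a median of 0.55 against 0.44 over all genes and 0.61 over genes brighter than the median gene. The 95% interval stayed within a 2-fold change either way for 11 of 42 genes after glial, 18 after neuronal and 16 after mesenchymal priming. For the remaining genes a 2-fold change was within the interval.

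Genes of cytokinesis and the central spindle had the lowest median among the 8 roles in glia-primed cells, at -0.68, with 6 of 7 below 0 and 1 called. It was -0.42 with housekeeping centring and -0.53 with cyclic loess. Levels of Anln, as log2 intensity in replicates 1 to 4, were 6.67, 5.74, 6.05 and 5.89 in unprimed cells and 4.71, 4.83, 4.69 and 4.86 in glia-primed cells. They were 5.48, 6.10, 4.80 and 5.69 in neuron-primed and 5.43, 5.74, 4.98 and 5.52 in mesenchyme-primed cells. The glia-primed arrays were tightly grouped and lay below all unprimed arrays, whereas the neuron-primed arrays overlapped them and mesenchyme-primed replicate 2 nearly reached unprimed replicate 2. The group means were 6.09 ± 0.41 (SD, n = 4) in unprimed and 4.77 ± 0.086 in glia-primed cells, a log2 change of -1.31 (SE 0.27, 95% interval -1.88 to -0.75, limma adjusted p = 0.0452), or 0.402 times the unprimed level. In neuron-primed cells the change was -0.57 (adjusted p = 0.503), and in mesenchyme-primed cells -0.67 (adjusted p = 0.557). The fall in glia-primed cells held its call without each of neuron-primed replicates 1, 2 and 3 and mesenchyme-primed replicate 3, and lost it without each of the other 12 arrays (adjusted p 0.0257 to 0.118). A second, dimmer Anln probe set, with a mean of 2.50, changed by 0.56 in glia-primed cells.

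Anln is encoded on mouse chromosome 9. Its promoter and those of Kif11 and Ccnb2 are printed because many late cell cycle genes carry a CCAAT box, which NF-Y binds, and a CHR element, which the DREAM and MuvB complexes bind. Anln was the called gene, and Kif11 and Ccnb2 were chosen after their values were seen, as genes with a negative and a positive change in glia-primed cells. Each run covers 250 bases before to 50 after the start site in GRCm38.p6, taken from RefSeq and written 5′ to 3′ on the strand of the gene. Capitals mark CCAAT or its reverse complement ATTGG, and the CHR letters TTTGAA, their reverse complement TTCAAA, or TTCGAA, which reads the same on both strands.
Anln, chr9:22389157-22389456, minus strand: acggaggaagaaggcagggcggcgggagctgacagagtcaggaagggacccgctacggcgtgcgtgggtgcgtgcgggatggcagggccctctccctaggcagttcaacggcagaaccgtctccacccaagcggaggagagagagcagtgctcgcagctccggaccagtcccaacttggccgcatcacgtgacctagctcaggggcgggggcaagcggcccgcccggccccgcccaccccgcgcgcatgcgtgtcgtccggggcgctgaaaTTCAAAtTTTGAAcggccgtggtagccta
Kif11, chr19:37376132-37376431, plus strand: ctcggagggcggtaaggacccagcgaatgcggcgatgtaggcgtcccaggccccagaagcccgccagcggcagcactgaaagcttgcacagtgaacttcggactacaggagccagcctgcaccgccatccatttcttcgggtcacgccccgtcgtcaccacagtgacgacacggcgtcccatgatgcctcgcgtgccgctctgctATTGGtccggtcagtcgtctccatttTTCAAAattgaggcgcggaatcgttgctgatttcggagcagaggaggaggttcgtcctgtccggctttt
Ccnb2, chr9:70421505-70421804, minus strand: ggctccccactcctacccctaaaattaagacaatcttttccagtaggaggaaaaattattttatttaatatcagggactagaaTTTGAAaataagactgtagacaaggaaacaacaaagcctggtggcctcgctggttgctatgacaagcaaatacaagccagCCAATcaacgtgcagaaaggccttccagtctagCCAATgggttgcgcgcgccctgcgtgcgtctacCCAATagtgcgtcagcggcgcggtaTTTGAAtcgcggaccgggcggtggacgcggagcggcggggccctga

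The Anln window held 2 CHR matches, starting at bases 22 and 29 after the start site, and no CCAAT match. In Kif11 a CCAAT match began 45 and a CHR match 19 bases before the start. Ccnb2 held 3 CCAAT matches and 2 CHR matches, one of them 5 bases after the start. Of the 42 genes 34 had a promoter in the table. CCAAT was found in either orientation in 26 of them (76.5%), against 42% of 14453 measured genes with a promoter there. A CHR match was found in 28 (82.4%, against 17.5%), by TTTGAA in 27 (79.4%, against 15.7%) and by TTCGAA in 3 (8.82%, against 2.23%). CCAAT and CHR together were present in 25 (73.5%, against 7.05%). A CHR match within 50 bases either side of the start, a window chosen after the positions were seen, was present in 25 genes (73.5%, against 4.62%). These are letter matches, and genes with both motifs included ones with negative and positive changes, as the values of Kif11 and Ccnb2 show.

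**Figure D2:**
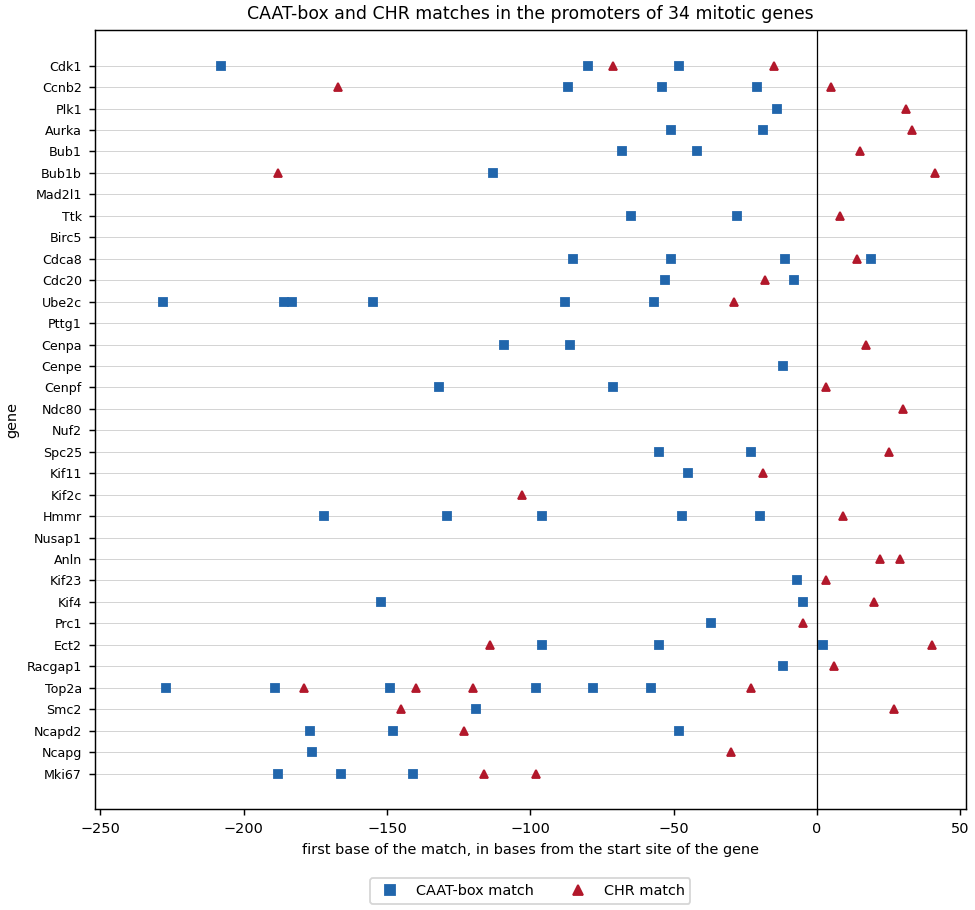
Positions of CCAAT-box (squares) and CHR (triangles) letter matches on either strand, in bases from the start site, for the 34 measured genes with a promoter in the RefSeq table. In 25 of 34 genes a CHR match lies within 50 bases of the start, and the CCAAT matches mostly lie upstream of it.

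Prc1, the microtubule bundler of the central spindle, had levels of 7.85, 9.09, 6.86 and 8.29 in unprimed and 7.69, 6.97, 4.77 and 7.95 in mesenchyme-primed cells. Levels in glia-primed cells were 7.96, 8.44, 7.67 and 8.20, and in neuron-primed cells 8.32, 8.30, 7.53 and 7.38. Mesenchyme-primed replicate 3 was far below the other arrays, and all groups overlapped. The change in mesenchyme-primed cells was -1.18 (SE 0.6, adjusted p = 0.676), or -0.49 without that array, and in glia-primed cells 0.05 (adjusted p = 0.99). A slightly dimmer Prc1 probe set changed by only -0.335 in mesenchyme-primed cells and by 0.126 in glia-primed cells. In glia-primed cells the kinesins Kif4 (-0.73), Kif23 (-0.68) and Kif20a (-0.31), which work at the midzone, the GTPase-activating protein Racgap1 (-0.96) and Ect2 (-0.09) did not pass either. Dimmer Racgap1 probe sets, with means of 5.22 and 1.33 against 5.64, gave 0.12 and 0.07 in glia-primed cells.

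Chromosome structure genes were below 0 in 6 of 6 cases in glia-primed cells, with a median of -0.40 (-0.14 with housekeeping centring) and 0 called. Smc4 had levels of 10.76, 11.16, 11.11 and 11.41 in unprimed and 10.44, 10.62, 10.24 and 10.32 in glia-primed cells. Its neuron-primed levels were 10.88, 10.60, 10.52 and 10.49, and its mesenchyme-primed levels 10.71, 10.83, 10.69 and 11.07. All glia-primed arrays lay below all unprimed ones, and in the remaining groups 1 or more arrays overlapped. The log2 change was -0.70 in glia-primed (SE 0.17, adjusted p = 0.0893), -0.49 in neuron-primed (adjusted p = 0.297) and -0.29 in mesenchyme-primed cells (adjusted p = 0.736). With 16 added to each intensity before the logarithm, Smc4 also passed in glia-primed cells (adjusted p = 0.046). Its further probe sets changed by -0.66 and -1.15 there.

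Top2a, the topoisomerase that untangles sister chromatids, measured 8.34, 8.58, 8.30 and 8.38 in unprimed and 8.49, 7.92, 7.35 and 7.67 in glia-primed cells. Neuron-primed arrays were at 8.39, 8.68, 7.89 and 7.93, and mesenchyme-primed arrays at 8.34, 8.26, 8.07 and 8.45. Glia-primed replicates 2 to 4 were under every unprimed array, while replicate 1 was not. The change in glia-primed cells was -0.54 (SE 0.23, adjusted p = 0.449). Mki67, the proliferation marker that coats mitotic chromosomes, measured 10.33, 10.25, 10.53 and 10.65 in unprimed and 10.18, 10.25, 9.76 and 10.66 in glia-primed cells. It stood at 10.56, 9.88, 9.97 and 10.12 in neuron-primed and 10.66, 10.29, 10.66 and 10.44 in mesenchyme-primed cells. The groups overlapped throughout. Its changes were -0.23 (95% interval -0.66 to 0.21, adjusted p = 0.786), -0.30 (-0.74 to 0.13, adjusted p = 0.689) and 0.07 (-0.36 to 0.51, adjusted p = 0.959), so a 2-fold fall lay outside all 3 intervals on this scaling.

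Condensin subunit Ncapd2 had the change nearest 0 in the mean of the primed groups. Its levels were 6.65, 6.55, 5.62 and 6.92 in unprimed, 6.43, 6.71, 5.60 and 3.6 after glial, 7.58, 6.24, 7.89 and 6.23 after neuronal and 6.28, 6.95, 7.26 and 6.63 after mesenchymal priming. Glia-primed replicate 4 was the lowest array, and the groups overlapped. The change near 0 was made of -0.85 after glial, 0.55 after neuronal and 0.34 after mesenchymal priming (adjusted p 0.697, 0.838 and 0.926). Without glia-primed replicate 4 the glial value was -0.19. Smc2, the ATPase partner of Smc4, and Ncapg, another condensin subunit, did not pass in any comparison.

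The centromere and kinetochore genes lay below 0 in 6 of 6 cases in glia-primed cells (median -0.50), and in 5 of 6 in both neuron-primed (median -0.37) and mesenchyme-primed cells (median -0.62), with 0 called. These medians were -0.23, -0.07 and -0.60 with housekeeping centring. Spc25, a subunit of the Ndc80 complex that grips microtubules, measured 7.44, 8.33, 8.17 and 8.30 in unprimed and 7.13, 7.67, 7.42 and 6.89 in mesenchyme-primed cells. It stood at 7.57, 7.35, 6.82 and 8.08 in glia-primed and 8.09, 7.81, 7.28 and 7.35 in neuron-primed cells. Unprimed replicate 1 was lower than the other unprimed arrays and overlapped with the primed groups. The change in mesenchyme-primed cells was -0.78 (SE 0.29, adjusted p = 0.534). A second, much dimmer Spc25 probe set, with a mean of 3.71, gave 0.67 there.

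Nuf2 belongs to the same complex. Its levels were 6.30, 6.23, 5.41 and 6.07 in unprimed and 4.96, 5.24, 5.58 and 5.63 in mesenchyme-primed cells, against 6.29, 5.71, 5.45 and 4.95 in glia-primed and 5.79, 5.91, 5.71 and 5.19 in neuron-primed cells. Unprimed replicate 3 lay within the primed range. Its change in mesenchyme-primed cells was -0.65 (SE 0.29, adjusted p = 0.618). Ndc80 itself did not overlap between glia-primed and unprimed arrays (-0.77). Cenpa, the histone that marks centromeres, changed by -0.59 there (adjusted p = 0.511), and Cenpe and Cenpf, which act at the kinetochore, did not pass.

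Spindle motors and assembly factors had a median of -0.44 in glia-primed cells (-0.18 with housekeeping centring), with 4 of 5 below 0 and 0 called. Kif11, the kinesin that pushes the spindle poles apart, measured 7.75, 7.29, 8.02 and 7.56 in unprimed and 6.77, 7.42, 5.37 and 6.82 in glia-primed cells. Neuron-primed arrays were at 7.55, 6.80, 8.03 and 6.85, and mesenchyme-primed arrays at 7.09, 7.16, 6.98 and 7.45. Glia-primed replicate 2 overlapped the unprimed arrays, and the other glia-primed arrays lay below them. The change was -1.06 in glia-primed cells (SE 0.38, adjusted p = 0.319) and -0.65 without glia-primed replicate 3, and further Kif11 probe sets gave -1.32 and -0.46. Hmmr, a microtubule-associated protein, was the exception in this role (0.47) by its brightest probe set. One of nearly equal brightness, with a mean of 5.47 against 5.56, gave -0.54, and dimmer ones gave 0.14, -0.10 and 0.22. Tpx2, the activator of Aurora A, Kif2c, a microtubule-depolymerising kinesin, and Nusap1, a spindle-binding protein, did not pass. The largest positive change of any gene of the list in neuron-primed cells was that of Kif2c, at 1.35 (adjusted p = 0.554). It rests on the brightest Kif2c probe set, and dimmer ones gave -0.37, -0.41 and 0.63 there.

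**Figure D3:**
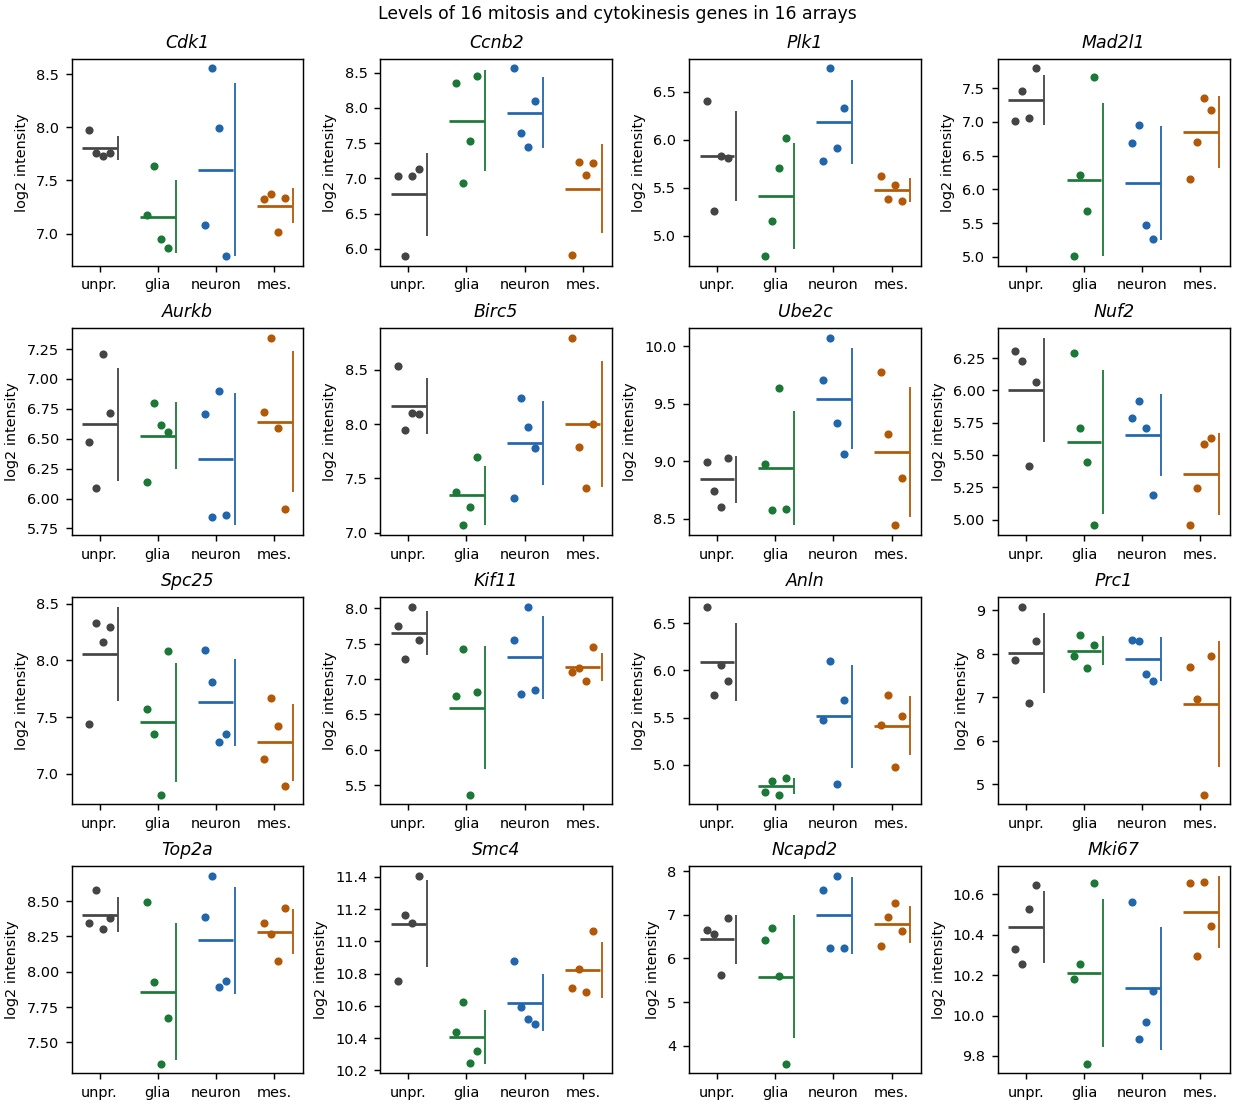
Log2 intensity of 16 mitosis and cytokinesis genes in each array (points), with group means (horizontal lines) and SD (vertical lines), 4 arrays per group; unpr. stands for unprimed and mes. for mesenchyme-primed. Axes differ between genes; the glia-primed Anln arrays, at 4.69 to 4.86, lie below all unprimed arrays, and Ccnb2 in neuron-primed cells lies above them.

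The spindle assembly checkpoint genes lay below 0 in 4 of 4 cases in each primed group, and 0 were called. Their median was -0.32 after glial, -0.91 after neuronal and -0.25 after mesenchymal priming, and -0.05, -0.62 and -0.22 with housekeeping centring. Mad2l1, which binds and restrains the Cdc20 activator, measured 7.01, 7.46, 7.05 and 7.79 in unprimed and 6.69, 6.95, 5.47 and 5.27 in neuron-primed cells. Its levels were 5.01, 6.21, 5.68 and 7.67 in glia-primed and 6.15, 6.70, 7.35 and 7.17 in mesenchyme-primed cells. All neuron-primed arrays lay under the unprimed ones, and glia-primed replicate 4 was within their range. The change was -1.23 in neuron-primed (SE 0.51, adjusted p = 0.437) and -1.18 in glia-primed cells (adjusted p = 0.453). The checkpoint kinases Bub1 and Ttk and the checkpoint protein Bub1b did not pass. Bub1 was tightly grouped in unprimed cells (6.88 ± 0.049, SD, n = 4) and widely spread in neuron-primed cells (5.83 ± 1.57).

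Within the chromosomal passenger complex, which corrects faulty attachments and acts in cytokinesis, 0 of 4 genes were called in any primed group. In glia-primed cells 3 lay below 0, and the median was -0.09 and turned to 0.05 with cyclic loess and 0.18 with housekeeping centring. Birc5 (survivin) measured 8.54, 7.94, 8.10 and 8.10 in unprimed and 7.38, 7.07, 7.23 and 7.70 in glia-primed cells. It stood at 7.32, 8.24, 7.97 and 7.78 in neuron-primed and 8.8, 7.79, 7.42 and 8.0 in mesenchyme-primed cells. Unprimed and glia-primed arrays did not overlap, and the change was -0.82 (SE 0.28, adjusted p = 0.28).

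Aurkb, the kinase of the complex, measured 6.47, 6.09, 7.21 and 6.71 in unprimed, 6.13, 6.80, 6.61 and 6.56 after glial, 6.71, 5.85, 6.90 and 5.86 after neuronal and 6.72, 7.35, 6.59 and 5.91 after mesenchymal priming. The groups overlapped. Its changes were -0.09 (95% interval -0.81 to 0.62), -0.29 (-1.0 to 0.42) and 0.02 (-0.69 to 0.73). A second Aurkb probe set of nearly equal brightness, with a mean of 6.52 against 6.53, changed by -0.68, -0.60 and -0.66. The scaffold Incenp and the subunit Cdca8 did not pass. For Cdca8 the brightest probe set changed by 0.09 in glia-primed cells and the dimmest by -1.22.

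Of 7 mitotic entry genes 6 lay below 0 in glia-primed cells (median -0.20, turned to 0.07 with housekeeping centring), while 5 lay above 0 in neuron-primed cells (median 0.31), with 0 called in either group. Ccnb2, a B-type cyclin that activates Cdk1, measured 7.04, 5.89, 7.03 and 7.13 in unprimed and 8.35, 6.94, 7.53 and 8.46 in glia-primed cells. Neuron-primed arrays were at 8.56, 7.64, 7.44 and 8.10, and mesenchyme-primed arrays at 5.92, 7.23, 7.05 and 7.21. All neuron-primed arrays lay above the unprimed ones, and glia-primed replicate 2 overlapped them. The change was 1.05 in glia-primed (SE 0.41, adjusted p = 0.384) and 1.16 in neuron-primed cells (SE 0.41, adjusted p = 0.323), with 0.08 in mesenchyme-primed cells.

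Cdk1, the kinase that drives entry, measured 7.97, 7.76, 7.72 and 7.76 in unprimed and 7.18, 7.63, 6.95 and 6.87 in glia-primed cells. It stood at 7.08, 8.55, 7.99 and 6.79 in neuron-primed and 7.32, 7.37, 7.02 and 7.33 in mesenchyme-primed cells. Both glia-primed and mesenchyme-primed arrays lay below all unprimed arrays, and the neuron-primed arrays spread to either side. The changes were -0.65 (SE 0.31, adjusted p = 0.518), -0.54 (adjusted p = 0.726) and, in neuron-primed cells, -0.20 (adjusted p = 0.902).

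Plk1, the polo kinase, measured 6.41, 5.25, 5.83 and 5.81 in unprimed, 4.78, 5.15, 5.70 and 6.02 after glial, 5.78, 6.74, 5.91 and 6.33 after neuronal and 5.62, 5.38, 5.53 and 5.37 after mesenchymal priming. Arrays of all primed groups overlapped the unprimed range. Its changes were -0.41, 0.36 and -0.35, with adjusted p of 0.714, 0.756 and 0.826, and the first ran from -0.61 to -0.20 without single arrays. Aurka, the kinase of spindle poles, the cyclin Ccna2, the phosphatase Cdc25c and the transcription factor Foxm1, which activates many of these genes, did not pass. Foxm1 changed by -0.04 in glia-primed cells by its brightest probe set, with a mean of 5.47. Slightly dimmer ones, with means of 5.26 and 5.05, gave -0.50 and -1.89, and a far dimmer one gave -0.10.

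Among partners of the anaphase-promoting complex, Ube2c, the ubiquitin-conjugating enzyme, measured 9.0, 8.74, 8.60 and 9.03 in unprimed and 9.71, 10.08, 9.34 and 9.06 in neuron-primed cells. Glia-primed arrays were at 8.97, 8.57, 9.63 and 8.58, and mesenchyme-primed arrays at 9.78, 9.24, 8.45 and 8.86. Neuron-primed arrays lay above all unprimed arrays, the nearest pair being 9.06 and 9.03. The change was 0.70 (SE 0.31, adjusted p = 0.469). The activator Cdc20 and the securin Pttg1 did not pass. Medians of this role were -0.08, 0.07 and 0.24 in glia-primed, neuron-primed and mesenchyme-primed cells, and the first turned to 0.19 with housekeeping centring.

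Where a gene had several probe sets, these often disagreed in sign. Of 30 such genes, 15 had probe sets of both signs after glial, 23 after neuronal and 18 after mesenchymal priming.

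**Figure D4:**
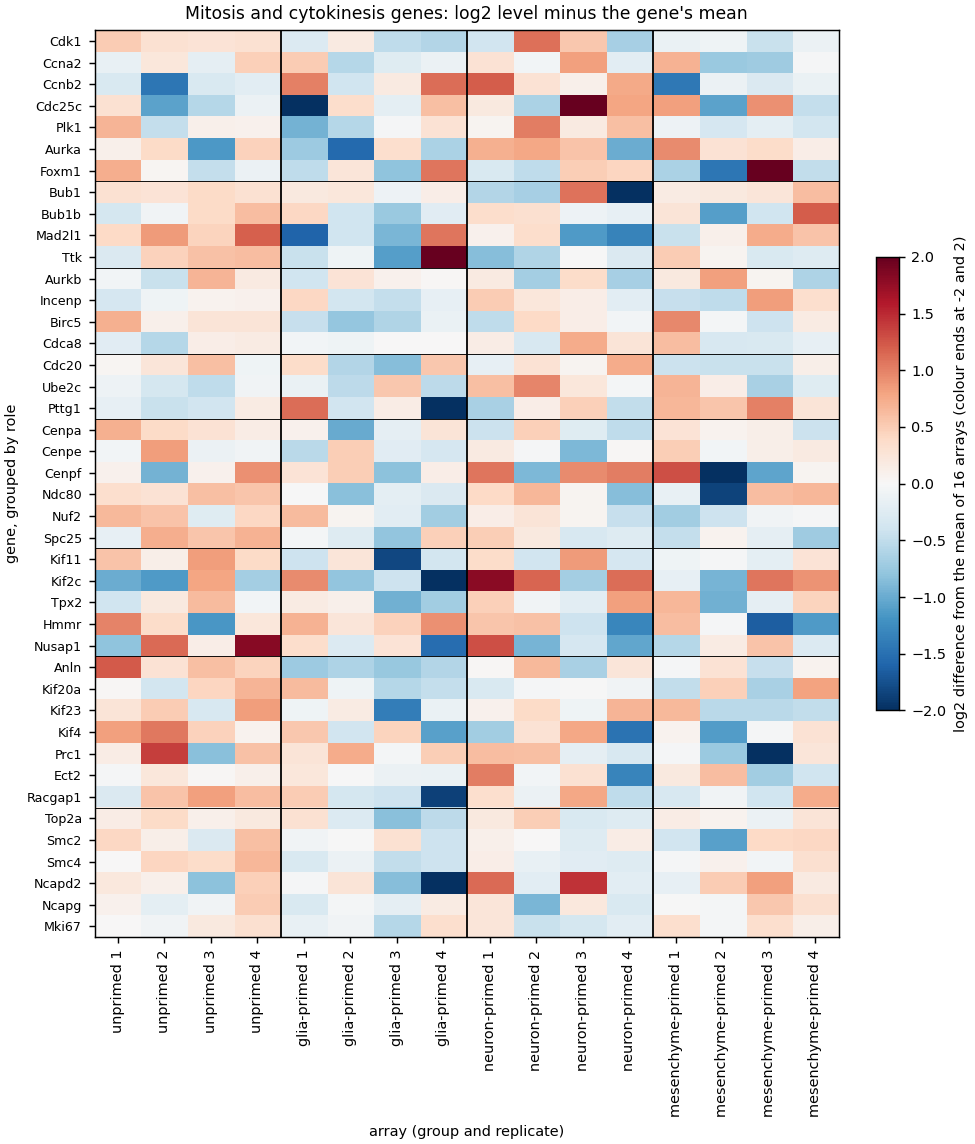
Log2 level of each of 42 genes in each array minus the gene's mean over 16 arrays, with genes ordered by role (horizontal lines) and arrays by group (vertical lines); colour ends at -2 and 2. In unprimed arrays 26 to 34 genes lie above their own mean, against 10 to 20 in glia-primed arrays, and single genes such as Cdc25c and Foxm1 vary within groups.

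The mitotic genes were summarised in each array by the median of their deviations from their own means. Unprimed arrays had medians of 0.08 to 0.32 and glia-primed arrays of -0.33 to -0.02. Neuron-primed arrays spanned -0.24 to 0.20, and mesenchyme-primed arrays -0.15 to 0.12. Glia-primed arrays lay below all unprimed arrays, and neuron-primed arrays covered most of the range. The corresponding median over all genes stayed between -0.06 and 0.04 in every array. Unprimed cells had the highest group mean for 22 of the 42 genes and glia-primed cells the lowest for 21, against 27.7% and 24.8% of all genes and 35.4% and 26.7% of genes brighter than the median gene.

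Other properties of the arrays also differed between the groups. The Gapdh control ratio, the log2 ratio of 3' to 5' probe sets that reflects RNA integrity and labelling, had its lowest mean in unprimed arrays, at 2.35 ± 0.19 (SD, n = 4). It was 2.95 ± 0.39 after glial, 2.85 ± 0.24 after neuronal and 2.96 ± 0.22 after mesenchymal priming. With this ratio as a covariate 0 genes were called, while Anln in glia-primed cells stood at -1.07 (adjusted p = 0.317) and the glia-primed median at -0.36. Markers of neural tube progenitors, which also divide, had a mean log2 level of 5.05 ± 1.5, 3.64 ± 0.68, 4.37 ± 1.4 and 4.51 ± 0.73 (SD, n = 4) in these groups in the same order, with 7 of 7 below 0 in glia-primed cells and 0 called. Their highest arrays, unprimed replicate 4 (7.24) and neuron-primed replicate 1 (6.40), were also those with the highest median of the mitotic genes in their groups. Glia-primed replicate 1 was likewise highest in both (4.55 and -0.02). Mesenchyme-primed replicate 3 went the other way, with the highest markers (5.4) and the lowest mitotic median (-0.15) of its group. With unprimed replicate 4 and neuron-primed replicate 1 left out, 0 genes were called. Anln in glia-primed cells was then as far below 0, at -1.38 (adjusted p = 0.0842), and the glia-primed median was -0.30. Smooth muscle and mesenchyme markers averaged 5.21 in unprimed cells, 6.64 in both glia-primed and neuron-primed cells and 6.28 in mesenchyme-primed cells. Among them Col1a2 was called higher in glia-primed cells (2.05, limma adjusted p = 0.0335). Xist, the RNA of the inactive X chromosome, lay at 6.39 to 10.5 in unprimed arrays, above the 2.61 to 5.34 of glia-primed arrays. The part of cell makeup and embryo sex in the changes was not tested.

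**Figure D5:**
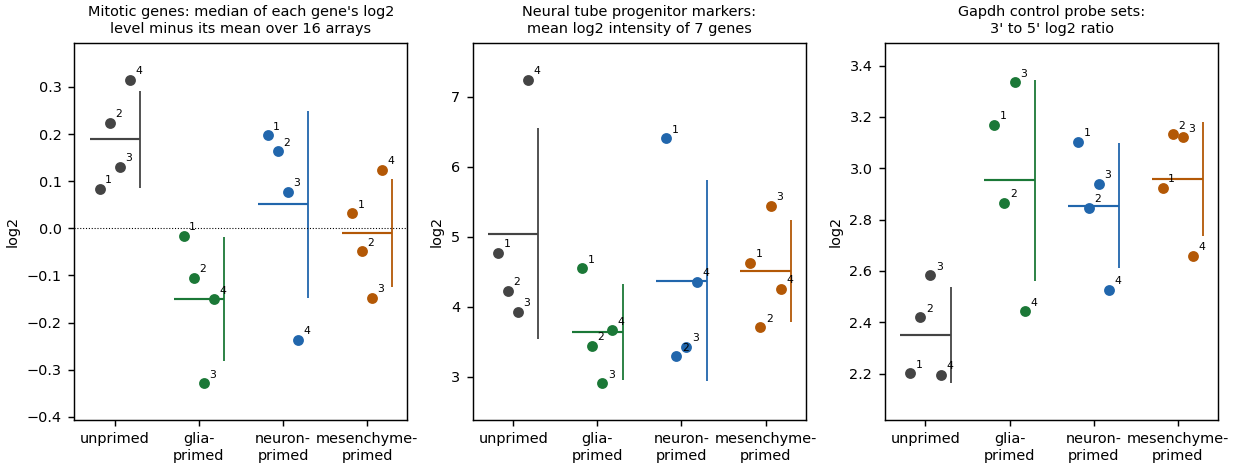
Per array: the median deviation of 42 mitosis and cytokinesis genes (left), the mean log2 level of 7 neural tube progenitor markers (middle) and the Gapdh 3' to 5' log2 ratio (right); numbers are replicates, horizontal lines group means and vertical lines SD. Glia-primed arrays lie below all unprimed arrays on the left, unprimed replicate 4 and neuron-primed replicate 1 are highest in the middle, and unprimed arrays have the lowest mean on the right.

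Between primed groups 0 of the 42 genes passed the limma test in any of the 3 comparisons. At an unadjusted p under 0.05, 3 were lower and 0 higher in glia-primed than in neuron-primed cells (all genes 3.39% and 2.85%). Against mesenchyme-primed cells, 4 were lower and 1 higher in glia-primed cells (3.66% and 3.4%), and 0 lower and 2 higher in neuron-primed cells (3.88% and 4.35%). Over all genes 0.011% passed between glia-primed and neuron-primed, 0.225% between glia-primed and mesenchyme-primed and 0.346% between neuron-primed and mesenchyme-primed cells. The median of glia-primed minus neuron-primed cells was -0.23, with 32 of 42 genes below 0. Glia-primed minus mesenchyme-primed cells gave -0.17, which turned to 0.06 with housekeeping centring, and neuron-primed minus mesenchyme-primed cells gave 0.12, which was -0.02 without mesenchyme-primed replicate 2. The smallest p-values belonged to Anln in the first (-0.74, adjusted p = 0.697), Smc4 in the second (-0.42, adjusted p = 0.614) and Ccnb2 in the third (1.08, adjusted p = 0.456).

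Deviations from the group means correlated only weakly between genes on average, though single pairs reached up to 0.75 (Cdca8 with Cenpf). Over 861 pairs of the 42 genes the mean correlation across 16 arrays was 0.06, with 492 pairs above 0, against 0.006 over all genes. The arrays share their scaling, so this value is a description.

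Outside the list, 127 further genes of mitosis were measured, in 6 lists. In glia-primed cells 0 of 127 passed, 99 lay below 0 and the median was -0.29. In neuron-primed cells 1 fell and 1 rose, with a median of -0.19, and in mesenchyme-primed cells 0 passed, with a median of -0.20. At an unadjusted p under 0.05, 21, 17 and 14 of them were lower and 1, 1 and 2 higher in these groups, beside the shares of all genes given above for the same comparisons. The medians became -0.03, 0.10 and -0.17 with housekeeping centring, where 68, 53 and 86 of the 127 lay below 0, and -0.17, -0.10 and -0.06 with cyclic loess.

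Smc3, a core subunit of the cohesin ring that holds sister chromatids together, fell in neuron-primed cells. Its levels were 8.52, 9.22, 8.71 and 9.15 in unprimed and 7.40, 7.79, 7.98 and 6.71 in neuron-primed cells. All neuron-primed arrays were lower, and the change was -1.43 (SE 0.28, adjusted p = 0.0414). It was -1.23 in glia-primed (adjusted p = 0.0813) and -0.99 in mesenchyme-primed cells (adjusted p = 0.368), and -1.22 in the mean of the primed groups (adjusted p = 0.0404). A second probe set gave -1.11 in neuron-primed cells. The call in neuron-primed cells held without each of glia-primed replicates 3 and 4, neuron-primed replicates 1 and 3 and mesenchyme-primed replicates 2 and 3, and was lost without each of the other 10 arrays (changes of -1.60 to -1.18 over all 16).

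Cenpp, a subunit of the constitutive centromere network, rose in neuron-primed cells. It measured 4.49, 4.22, 5.22 and 4.63 in unprimed and 5.72, 6.05, 6.29 and 7.42 in neuron-primed cells. The groups did not overlap, and the change was 1.73 (SE 0.35, adjusted p = 0.043), with 1.32 in glia-primed cells (adjusted p = 0.133). Its 2 dimmer probe sets gave 0.85 and -0.21 in neuron-primed cells. The call held without each of unprimed replicate 3, glia-primed replicate 1 and neuron-primed replicate 1 and was lost without each of the other 13 arrays (changes of 1.38 to 1.95 over all 16).

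The remaining genes of these lists did not pass. Of 17 further subunits and regulators of the anaphase-promoting complex 14 lay below 0 in glia-primed cells, where the smallest p was that of the subunit Cdc23 (-1.48, adjusted p = 0.267). Anapc15 had it in neuron-primed (-1.43, adjusted p = 0.187) and mesenchyme-primed cells (-1.07, adjusted p = 0.546). Cohesin and its regulators lay below 0 in 12, 11 and 11 of 15 cases. Of 32 further kinetochore and checkpoint genes 25 lay below 0 in glia-primed cells, led by the centromere protein gene Cenpc1 (-0.91, adjusted p = 0.126). In mesenchyme-primed cells the checkpoint gene Mad1l1 led this list (-1.24, adjusted p = 0.346).

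Among 36 further spindle, centrosome and cytokinesis genes the smallest p-values belonged to Arhgap11a in glia-primed (-0.82, adjusted p = 0.197), to the augmin subunit Haus1 in neuron-primed (-0.93, adjusted p = 0.354) and to citron kinase, Cit, in mesenchyme-primed cells (1.10, adjusted p = 0.648). Condensin II subunits led the 4 further condensin genes, with Ncapg2 at -1.05 in glia-primed (adjusted p = 0.357) and -1.30 in neuron-primed cells (adjusted p = 0.217), and Ncaph2 at -1.09 in mesenchyme-primed cells (adjusted p = 0.697). Of 23 further control genes of mitotic entry and exit 17 lay below 0 in glia-primed cells, where Ccnf had the smallest p (-1.27, adjusted p = 0.273). Ensa (-0.51, adjusted p = 0.389) and Lin54 (-1.09, adjusted p = 0.525) had it in neuron-primed and mesenchyme-primed cells.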

How the data were processed

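RNA of 16 arrays in 4 groups of 4 was measured, with groups and replicate numbers taken from the sample titles. The deposited intensity values were made by the authors with RMA (no version stated), per the submitters' processing notes. They run from 1.487 to 31600 and are linear, so log2 was taken here with no offset. Of 45101 probe sets, 34958 named a single gene, 932 several, and 9211 were not listed in the platform annotation. Symbols were updated by Entrez identifier to the GRCm38.p6 gene table (99.4% matched), and the probe set with the highest mean was kept for each of 18194 genes.

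Group means over all 16 arrays entered a linear model in limma 3.58.1 under R 4.3.3, by lmFit and then eBayes. The 7 comparisons were tested two-sided with Benjamini-Hochberg adjustment over all genes, and genes were called at an adjusted p under 0.05. The scripts were tested on simulated data, with rises added to genes brighter than the median gene in the glia-primed arrays. Of 50 genes at each size, 11 were recovered at 2-fold, 24 at 4-fold, 46 at 8-fold and 49 at 16-fold. There were 0 false calls, so most 2-fold changes would be missed. The number of arrays limits the precision.

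The members and all gene lists were chosen with earlier results of these data known, so no list was tested as a set. Array values are printed for genes called in any comparison, the 4 smallest p-values of each primed group, Cdk1, Plk1, Aurkb, Top2a, Mki67 and Anln always, and the change nearest 0 in the mean of the primed groups. In the further lists, called genes and otherwise the smallest p are named. Other genes are named to account for their role. Replicate numbers did not pair the arrays: deviations of the 24 same-numbered pairs correlated between -0.0671 and 0.0641. Alternatives were the replicate block, 3 scalings, a filter on dim genes, 2 choices of probe set, eBayes settings, array weights, the groups fitted, an offset of 16, the Gapdh ratio as a covariate and leaving out each array. Leaving out both arrays rich in neural tube markers, all alternatives for Smc3 and Cenpp, and the scalings of the further mitosis genes were added after seeing the data. Promoters came from the RefSeq table.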

Additional observations from a re-analysis of the deposited data

Results flagged for a closer look

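Outlying arrays were looked for in 68 sets of 4 arrays, those of the named genes and of the median of the mitotic genes, with Dixon's ratio. Chance flags about 1 in 20 sets, and 4 were found. Cdk1 stood at 7.97 in unprimed replicate 1 against 7.72 to 7.76 in the other unprimed arrays, and at 7.02 in mesenchyme-primed replicate 3 against 7.32 to 7.37. Ccnb2 stood at 5.89 in unprimed replicate 2 against 7.03 to 7.13, and at 5.92 in mesenchyme-primed replicate 1 against 7.06 to 7.23. All values are log2 intensities.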

How the results depend on the processing

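The single call among the 42 genes, Anln in glia-primed cells, depends on the fit. The count was 0 with the replicate block (Anln adjusted p = 0.0663), cyclic loess, housekeeping centring, the mean of probe sets (Anln change -0.38), eBayes with trend and robust settings, only the groups compared, the Gapdh covariate, and without both unprimed replicate 4 and neuron-primed replicate 1. It was 2 with an offset of 16, and 0 to 1 when single arrays were left out. Over all alternatives the adjusted p of Anln ran from 0.0242 to 0.742. The cause was not tested. In the other 6 comparisons the count was 0 under every alternative run, replicate block included.

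Medians of the 42 genes moved as follows. With cyclic loess they were -0.179 in glia-primed, -0.057 in neuron-primed, -0.075 in mesenchyme-primed cells and -0.076 in the mean of the primed groups. With housekeeping centring they were -0.058 in glia-primed and 0.089 in neuron-primed cells, -0.03 in the mean of the primed groups, 0.064 for glia-primed minus mesenchyme-primed and 0.391 for neuron-primed minus mesenchyme-primed cells. This centring also moved the median of all genes to 0.259, 0.3 and 0.021 in the 3 primed groups, and turned the calls over all genes in glia-primed cells from 34 higher and 59 lower to 66 and 22, and in neuron-primed cells from 24 and 55 to 59 and 26. Cyclic loess gave 39 higher and 36 lower in glia-primed cells. Leaving out single arrays gave -0.553 to -0.229 in glia-primed cells, -0.37 to -0.181 for glia-primed minus neuron-primed and -0.022 to 0.248 for neuron-primed minus mesenchyme-primed cells.

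Aurkb in glia-primed cells turned to 0.039 with cyclic loess and 0.171 with housekeeping centring, and ran from -0.271 to 0.102 without single arrays. It moved to -0.534 with the Gapdh covariate. With the offset, the brightest probe set was picked again. The Aurkb value was then -0.585, near the -0.675 of its second probe set rather than the -0.094 of its first. Mki67 in glia-primed cells turned to 0.038 with housekeeping centring. One choice of probe sets left out those with names ending in _x_at, _s_at, _a_at or _f_at, which left 33 genes. Spc25 in mesenchyme-primed cells then turned to 0.665, the value of its dimmer probe set. In neuron-primed cells Smc3 kept its call in 11 and Cenpp in 10 of 29 alternatives (adjusted p 0.0367 to 0.199 and 0.0161 to 0.215), with the same sign in all, and the replicate block ended both calls. The replicate block gave 18 higher and 34 lower genes in glia-primed cells over all genes. How far dim genes stood above background was not measured, so their changes are rough.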
